A study of Mus musculus with 8 samples.

Results

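The 5-hydroxymethylcytosine (5hmC) peak list of mouse induced pluripotent stem cells (iPSC) was compared with that of mouse embryonic fibroblasts (MEF), the cells from which reprogramming starts. A peak is a stretch of the genome at which 5hmC-bearing DNA fragments were called as enriched. The iPSC list held 54938 peaks and the MEF list 65776, which is 120714 of the 684512 peaks in the 8 lists of the series. A peak was counted as shared when it overlapped a peak of the other list by at least 1 bp, and as specific otherwise.

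5hmC is made from 5-methylcytosine by the TET dioxygenases and is both an intermediate of DNA demethylation and a mark that can persist. In mouse cells it is known to lie over gene bodies, enhancers and the flanks of promoters. Its pattern differs between cell types, and pluripotent cells are known for high TET activity. Reprogramming to pluripotency is known to rewrite the methylation pattern of the fibroblast, which is the setting of the comparison.

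The series followed 5hmC from MEF over intermediates at D1, D3 and D5, read as days, to iPSC, with reprogramming by the OSNK or the OySyNyK method. OSNK stands for Oct4, Sox2, Nanog and Klf4, and in OySyNyK all of these but Klf4 are fused to a domain of YAP; this is known from the study and is not in the labels. The title of the iPSC sample carries the letters of the OySyNyK factors, and the growth protocol gives OG2-MEFs as the fibroblasts and vitamin C and LIF as additions for making iPSC. OG2 mice are known for a GFP reporter under the Oct4 promoter. The iPSC were kept on mitomycin C-treated MEF feeder cells, which are fibroblasts themselves, and the labels do not say whether these were removed before DNA was taken. The MEF title ends in P3 and the iPSC title in iPS2, and the labels do not say whether these mark a passage, a clone or a repeat. Sex and the number of embryos behind the libraries are not given in the labels.

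For the measurement, sonicated genomic DNA was given an azide-bearing glucose at each 5hmC by beta-glucosyltransferase, the azide was linked to biotin, and the tagged fragments were captured on streptavidin, released with DTT and sequenced. Each group had 1 library, so no difference has a replicate check and no test was made. The intervals given are exact (Clopper-Pearson) 95% intervals of shares of peaks and cover counting error only. The files give no read totals, so the depth of each library is unknown, and the absence of a peak is not the absence of 5hmC. Each library is bulk DNA, in which more cells with 5hmC at a site and more 5hmC per cell cannot be told apart. The lists were not assigned to genes here, so the cell type labels were not checked against marker genes.

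The iPSC list was the shortest of the 8, and its peaks were narrower and lower in score than those of MEF. It covered 41.1 Mb, against 63.0 Mb in MEF. The median peak was 641 bp wide in iPSC and 841 bp wide in MEF. The median score, the authors' own value of each peak, was 71.0 in iPSC and 103 in MEF, and the lowest score was 50 in both lists. A score of at least 100 was held by 12974 iPSC peaks (23.6%) and 33939 MEF peaks (51.6%). The gap was wider among the strongest peaks, with 15 iPSC peaks and 534 MEF peaks scoring at least 1000. The highest score was exactly 3100 in the iPSC, OSNK D1, OSNK D5, OySyNyK D3 and OySyNyK D5 lists. Peaks with a score of 3100 may therefore not be ranked by it. Because scores also depend on depth, which is unknown, they are used to rank and describe peaks within a list. Comparisons at equal list sizes used all 54938 iPSC peaks and the 54938 best-scoring MEF peaks.

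Most peaks of either list had no counterpart in the other. Of the iPSC peaks, 11937 (21.7%, 95% interval 21.4 to 22.1) were shared and 43001 were specific. Of the MEF peaks, 11447 (17.4%, 17.1 to 17.7) were shared and 54329 were specific. The shared peaks numbered 10280 (18.7%) in iPSC and 9773 (17.8%) in MEF at equal list sizes. The lists together covered 95.7 Mb, and 8.37 Mb of it, 8.75%, lay in both. Among the 28 pairs of lists at equal sizes, the bases covered by both as a share of those covered by either ran between 6.06%, for iPSC and OSNK D1, and 47.3%, for the 2 lists of D1, with a median of 27.6%. The value for iPSC and MEF was 8.26%, the second lowest, next to iPSC with OSNK D3 (8.46%) and with OySyNyK D1 (8.49%). Every pair up to rank 6 from the lowest, iPSC and OySyNyK D3 at 12.8%, held the iPSC list. Low values were thus not particular to the pair with MEF. For comparison, iPSC and OySyNyK D5 had 18.1%, and OSNK D1 and MEF had 34.7%.

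Where peaks were shared, the iPSC peak usually lay inside or nearly inside the broader MEF peak. A shared iPSC peak was covered by MEF peaks over a median of 98.5% of its length, and 5660 (47.4%) lay wholly within them. A shared MEF peak was covered by iPSC peaks over a median of 64.6%, and 815 (7.12%) lay wholly within them. Few peaks were close to the limit between the classes. Those shared by 50 bp or less numbered 217 in iPSC, with a median width of 636 bp and a median score of 68.8, and 186 in MEF, with 919.5 bp and 97.7. Specific peaks within 50 bp of the other list numbered 198 in iPSC, with 627.5 bp and 73.0, and 182 in MEF, with 894 bp and 99.2.

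Shared peaks were wider and higher in score than specific peaks in both lists. The median width in iPSC was 716 bp for shared and 624 bp for specific peaks, and in MEF it was 1040 bp and 809 bp. A wider peak has more bases that can overlap, so width is tied to the rule itself. The median score in iPSC was 79.2 for shared and 69.4 for specific peaks, and in MEF it was 122 and 100. Peaks of 2 kb or more were 3.45% of the shared and 1.11% of the specific peaks of iPSC. In MEF they were 10.7% of the shared and 2.13% of the specific peaks. The classes overlapped widely all the same: the middle 50% of iPSC peaks ran between 550 and 997 bp when shared and between 490 and 827 bp when specific.

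**Figure D1:**
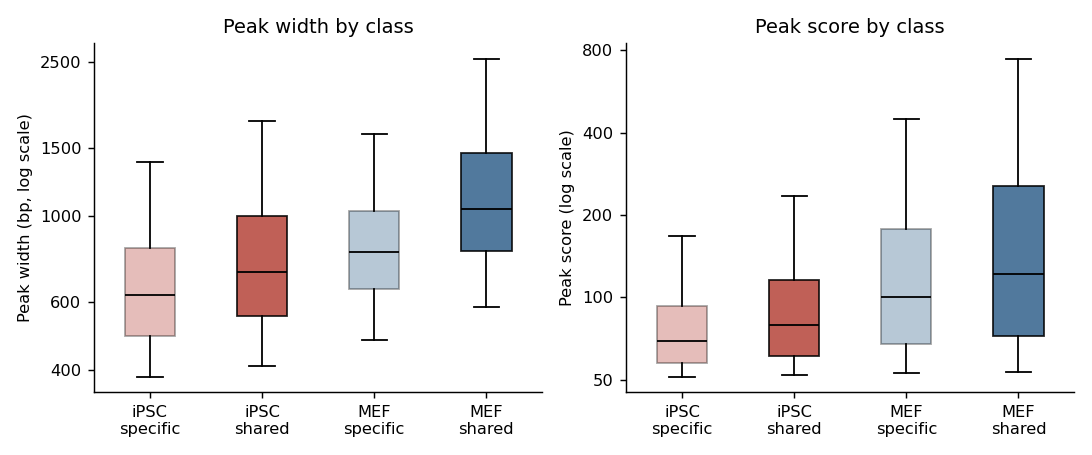
Width (left, bp) and authors' score (right) of specific and shared peaks, iPSC in red and MEF in blue, both on log axes, with all peaks of each list. Boxes run over the middle 50% of peaks with a line at the median, and whiskers reach the 5th and 95th percentiles. Shared peaks sit above specific ones in each list, and the highest median width is that of shared MEF peaks, 1040 bp.

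The share of peaks that were shared went with score and width, and by score more evenly so in iPSC than in MEF. Each list was cut into 10 equal parts, or deciles. In iPSC, 35.3% of the top decile by score were shared (95% interval 34.1 to 36.6) and 16.2% of the bottom decile (15.3 to 17.2). In MEF, 30.1% of the top decile by score were shared (28.9 to 31.2) and 15.4% of the bottom decile (14.6 to 16.3), with the lowest value, 14.4%, in decile 7 from the top. The MEF contrast lay almost wholly in the top 2 deciles. Width separated MEF peaks more than iPSC peaks: the widest decile was shared at 35.2% in iPSC and 40.8% in MEF, and the narrowest decile at 14.5% in iPSC and 5.64% in MEF. When every peak was set to 500 bp round its midpoint, the top and bottom deciles by score were shared at 26.8% and 13.5% in iPSC and at 22.2% and 13.9% in MEF. When at least 50% of a peak had to be covered, the difference between the top and bottom deciles by score was 15.5 percentage points in iPSC, against 19.1 by the 1 bp rule, and 1.31 percentage points in MEF, against 14.6.

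**Figure D2:**
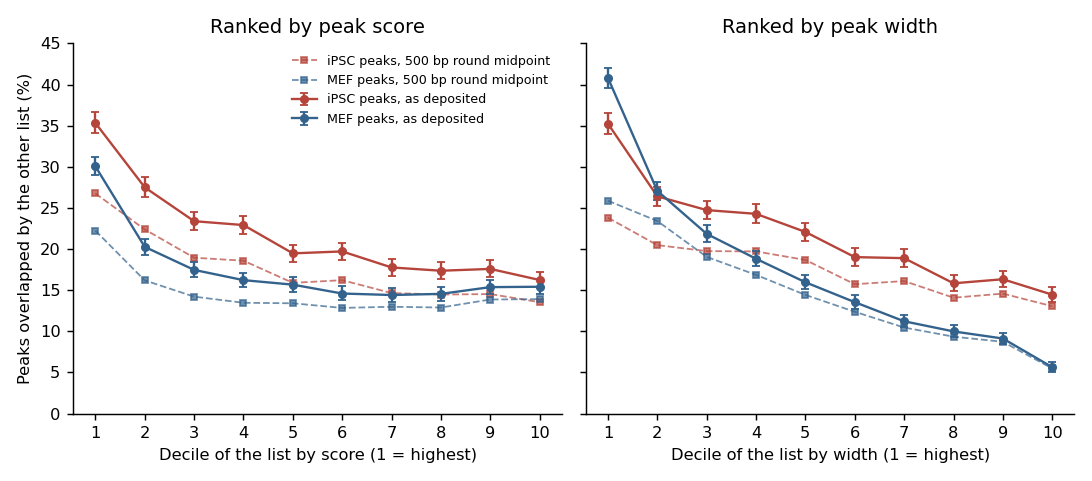
Share of peaks overlapped by the other list (%, vertical axis) in each decile of a list ranked by score (left) or by width (right), decile 1 being the highest, iPSC in red and MEF in blue. Solid lines with exact 95% intervals show the deposited peaks and dashed lines peaks of 500 bp round their midpoints; by width MEF falls to 5.64% in the narrowest decile, where iPSC is at 14.5%.

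Score and width rise together within a list, so the lists were also divided into 3 equal parts (terciles) by both at once, a grouping chosen after seeing the data. In iPSC the share still went with score among wide peaks and peaks of middle width. Among the widest tercile of iPSC peaks, 31.2% of those in the top tercile by score and 22.2% of those in the bottom tercile were shared. For iPSC peaks of middle width the values were 24.3% and 18.3%, and for narrow ones 16.9% (95% interval 15.1 to 18.95) and 15.3% (14.6 to 16.01), which overlap. In MEF the share did not go up with score among peaks of middle or narrow width. Among MEF peaks of middle width, 12.6% of the top tercile by score were shared and 18.7% of the bottom tercile, and among narrow ones 6.86% and 9.70%. Among the widest MEF peaks the values were 29.0% and 32.7%, but 30.9% and 29.3% at equal list sizes, so that this direction depends on the length of the list.

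Few of the strongest peaks of one list overlapped the strongest of the other, which are a small part of that list. Of the 1000 best-scoring peaks of each list, 3.0% of those of iPSC overlapped one of MEF, and 2.9% of those of MEF overlapped one of iPSC. Against the whole other list, 46.9% of the same 1000 iPSC peaks and 49.1% of the same 1000 MEF peaks were overlapped. In iPSC, 469 of the 1000 overlapped any MEF peak, and 30 of these overlapped one of the best 1000. Of all 11447 shared MEF peaks, 491 were among the best 1000. Overlap among the strongest was therefore no less frequent than over shared peaks of any score. For the best 20000 of each list the mutual shares were 11.6% in iPSC and 11.0% in MEF, and against the whole other list they were 27.7% and 22.5%. Strong peaks of each state were therefore often found in the other state, at a lower rank.

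The overlapping peaks formed 11245 groups, of which 10476 (93.2%) joined 1 iPSC peak to 1 MEF peak. In 571 groups several iPSC peaks lay on 1 MEF peak, and in 125 groups 1 iPSC peak lay on several MEF peaks. In the one-to-one pairs the midpoints were a median of 145.5 bp apart, and 60.0% were at most 200 bp apart. The median width in these pairs was 702.5 bp in iPSC and 1015 bp in MEF, and the iPSC peak was the wider one in 2194 (20.9%). Across the 10476 pairs the scores in iPSC and MEF were almost unrelated, with a Spearman correlation of 0.0048, while the widths had one of 0.40. These pairs are neighbouring sites of the same 2 libraries and not independent replicates. Of the 1613 pairs whose iPSC peak was in the top decile of its list, 693 had a MEF peak in the lower 50% of the MEF list. Of the 1710 pairs whose MEF peak was in the top decile, 699 had an iPSC peak in the lower 50% of the iPSC list. Both peaks were in the top decile in 272 pairs. Of all 10476 pairs, 1710 had a MEF peak in the top decile, so 272 of 1613 is close to the share over all pairs. The share of all pairs with a peak in the lower 50% was not counted.

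The pairs that ranked high in both lists are given by position in the lists' own mouse assembly, counted from 1. The highest was on chromosome 17, where the iPSC peak at 35647579 to 35652119 was 4541 bp wide with a score of 3100, the top score of the iPSC list, and the MEF peak at 35649163 to 35652174 was 3012 bp wide with a score of 1330. On chromosome 15, an iPSC peak of 3474 bp at 77625295 to 77628768 (score 399) matched a MEF peak of 3717 bp at 77625163 to 77628879 (score 1354). On chromosome 10, an iPSC peak of 1823 bp at 80606298 to 80608120 (score 393) lay within a MEF peak of 8271 bp at 80602067 to 80610337 (score 3100). The other pairs named by the rule were on chromosome 11, at 98829929 to 98833440 in iPSC and 98828966 to 98833445 in MEF, and on chromosome 5, at 31378301 to 31380757 in iPSC and 31378322 to 31379846 in MEF. By rank within its own list, the iPSC peak stood higher than the MEF peak in 3 of these 5 pairs, those on chromosomes 17, 11 and 5.

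The strongest specific peaks are described by their scores within each list, whose medians differ between libraries. The top iPSC-specific peak was at 114145855 to 114151083 on chromosome 12, 5229 bp wide with a score of 931. It had no MEF overlap but lay 395 bp from a MEF peak. It was overlapped in all 6 intermediates, with best scores of 58.7, 101 and 252 over D1, D3 and D5 with OSNK and of 325, 504 and 340 with OySyNyK. The next were at 56906033 to 56909243 on chromosome 17, with a score of 873, and at 51795334 to 51799569 on chromosome 7, with 838. The peak on chromosome 17 was overlapped at D3 of OSNK, with a score of 51.7, and at D3 and D5 of OySyNyK, with 126 and 286, and lay 12606 bp from the nearest MEF peak. The peak on chromosome 7 was overlapped only at D3 and D5 of OySyNyK, with 61.2 and 128. These 2 peaks were thus found in late more than in early intermediates.

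The widest iPSC-specific peak was overlapped in all 6 intermediates, as was the top-scoring one. It spanned 8693 bp at 120670090 to 120678782 on chromosome 11 with a score of 296, and the nearest MEF peak was 34444 bp away. Its best scores were 535, 525 and 298 over the 3 days with OSNK and 524, 715 and 396 with OySyNyK. A second wide iPSC-specific peak on chromosome 11, 6347 bp at 70417001 to 70423347, was also found in all 6 intermediates.

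In MEF the top specific peak was at 32656193 to 32659371 on chromosome 16, 3179 bp wide with a score of 2325. Over D1, D3 and D5 its best scores were 2157, 948 and 618 with OSNK and 1451, 660 and 279 with OySyNyK. The second, which was also the widest MEF-specific peak, spanned 6031 bp at 86390571 to 86396601 on chromosome 11 with a score of 2209, followed by 3100, 1489 and 346 with OSNK and 2443, 499 and 308 with OySyNyK. The next, at 5974958 to 5979535 on chromosome 17 with a score of 2150, was followed by 2231, 840 and 276 with OSNK and 1696, 573 and 140 with OySyNyK. All 3 peaks were overlapped in all 6 intermediates, scored lower at D3 than at D1 and lower again at D5 with either method, and had no overlapping peak in iPSC. The median score of the whole lists was also lower at each later day, at 105, 91.4 and 81.3 with OSNK and 95.8, 84.2 and 75.8 with OySyNyK. The other wide MEF-specific peaks, at 5836579 to 5841958 on chromosome 19 and at 56502276 to 56507638 on chromosome 7, lay 1753 and 3520 bp from an iPSC peak.

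MEF-specific peaks were found in more of the intermediates than iPSC-specific peaks, by a margin that was narrower at later days. With all lists cut to equal size, 64.8% of iPSC-specific and 29.7% of MEF-specific peaks lay outside every intermediate list. All 6 intermediates overlapped 2.74% of iPSC-specific and 12.7% of MEF-specific peaks. Shared peaks were alike in both lists, with 34.2% of those of iPSC and 37.0% of those of MEF overlapped in all 6. A shared peak was overlapped in a median of 4 intermediates in either list, an iPSC-specific peak in 0 and a MEF-specific peak in 2. With OSNK, 5.89%, 13.7% and 15.9% of iPSC-specific peaks were overlapped over D1, D3 and D5, against 55.2%, 37.5% and 27.4% of MEF-specific peaks. With OySyNyK the shares were 9.07%, 17.7% and 26.1% for iPSC-specific and 53.7%, 33.2% and 25.5% for MEF-specific peaks, so that at D5 the iPSC-specific share was the higher one. The whole lists differed in the same direction. With OSNK, 15.6%, 22.1% and 23.1% of all iPSC peaks were overlapped, against 56.2%, 41.4% and 32.6% of all MEF peaks. With OySyNyK the whole-list shares were 19.6%, 26.6% and 33.7% in iPSC and 56.2%, 39.3% and 33.3% in MEF.

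MEF-specific peaks lay farther from the other list than iPSC-specific peaks did. Spacing within the full lists was similar, but at equal list sizes MEF peaks also lay farther from each other. The median gap to the next peak of the same list was 9180 bp in iPSC and 9687.5 bp in MEF, and 11436 bp in MEF at equal list sizes. The median distance of a specific peak to the nearest peak of the other list was 8700 bp in iPSC and 12693 bp in MEF, and 10373 and 12538 bp at equal sizes. Within 1 kb of the other list lay 10.4% of iPSC-specific and 8.60% of MEF-specific peaks. Within 100 kb lay 97.6% of iPSC-specific and 85.8% of MEF-specific peaks. At least 1 Mb away lay 6 iPSC-specific and 506 MEF-specific peaks, and 16 and 401 at equal sizes. These distances to the other list include the X chromosome, where the full lists had 106 iPSC and 511 MEF peaks. The part of single chromosomes in them was not separated. The iPSC list also had more and longer empty stretches on chromosomes 1 to 19, with 335 gaps of at least 1 Mb adding up to 753 Mb, against 188 gaps and 332 Mb in MEF. MEF had 216 such gaps, adding up to 389 Mb, at equal list sizes.

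Agreement between the lists was low at the scale of a peak and high at that of a chromosome region. In bins of 1 kb, 16.2% of the bins with an iPSC peak midpoint also had a MEF one, and 13.6% of those with a MEF one also had an iPSC one. The 2 shares were 42.8% and 35.6% in bins of 10 kb, 86.8% and 68.2% in bins of 100 kb, and 98.2% and 86.3% in bins of 1 Mb. Larger bins hold more peaks of each list, which raises these shares in any pair of lists.

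Peaks in clusters were shared more often than peaks standing alone. A cluster was a set of peaks of 1 list separated by gaps of at most 5 kb. Peaks without such a neighbour made up 45.3% of the iPSC list and 44.9% of the MEF list, and clusters of 5 or more peaks held 13.4% and 13.2%. At equal list sizes the MEF values were 48.9% and 10.7%. In iPSC the share of peaks overlapped was 19.02% for single peaks, 21.7% in clusters of 2, 24.3% in clusters of 3 to 4, 26.2% in clusters of 5 to 9 and 30.9% in clusters of 10 or more. In MEF the same shares were 14.7%, 16.6%, 19.4%, 23.8% and 30.8%. Peaks in larger clusters were also wider: the median in clusters of 10 or more was 965 bp in iPSC and 1127 bp in MEF, against 581 bp and 787 bp for single peaks. Of the clusters of 10 or more peaks, 109 of 124 in iPSC and 115 of 127 in MEF had at least 1 shared peak. In 1 of them in iPSC and 0 in MEF every peak was shared. Both counts depend on cluster size, since more peaks make 1 shared peak likelier and all shared less likely. Over all clusters, single peaks included, 26.1% in iPSC and 21.4% in MEF had a shared peak.

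**Figure D3:**
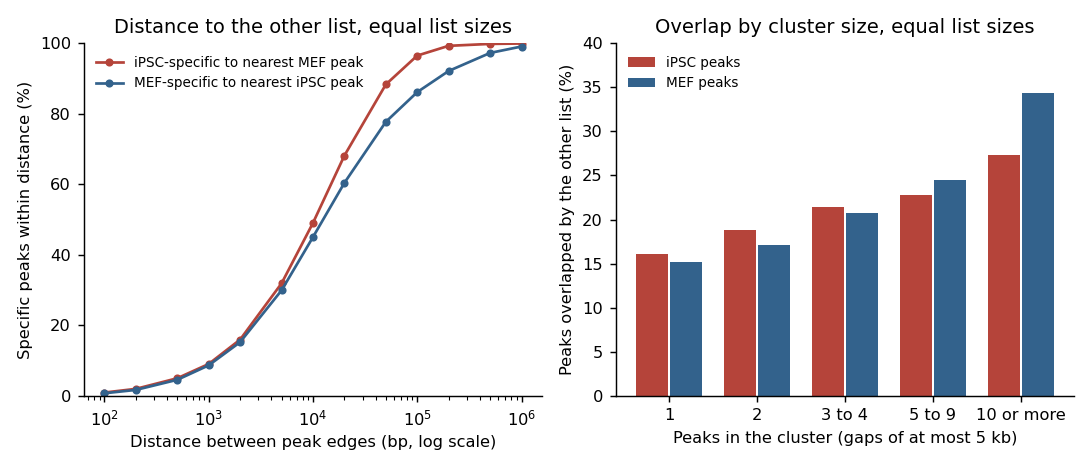
Left, the share (%) of iPSC-specific (red) and MEF-specific (blue) peaks within a given distance (bp, log axis) of the nearest peak of the other list; right, the share of peaks overlapped by the other list in clusters of each size, both at equal list sizes. The lines part beyond 10 kb, with 96.5% of iPSC-specific and 86.2% of MEF-specific peaks within 100 kb, and the bars rise with cluster size in both lists.

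The densest clusters of each state also held peaks of the other state. They were chosen by the number of peaks of their own list, so an excess of that list is built in. Counts are from the full lists. The 2 largest iPSC clusters, of 34 peaks each, were both on chromosome 12. The one at 109427336 to 109509245 held 34 iPSC and 13 MEF peaks, and 15 of the iPSC peaks were shared. The one at 77650494 to 77736754 held 34 iPSC and 12 MEF peaks, and 12 of the iPSC peaks were shared. The next, at 117875596 to 117964384 on chromosome 11, held 31 iPSC and 9 MEF peaks, with 6, 9 and 15 peaks over D1, D3 and D5 with OSNK and 14, 22 and 27 with OySyNyK. The largest MEF cluster, at 119802590 to 119906609 on chromosome 10, held 17 iPSC and 49 MEF peaks, and 15 of the MEF peaks were shared. The intermediates had between 46 and 56 peaks there, in lists that were all longer than that of MEF. The cluster at 77591558 to 77668769 on chromosome 15, which contains the strong shared pair given above, held 22 iPSC and 31 MEF peaks. The cluster at 27505364 to 27573211 on chromosome 3 held 6 iPSC and 24 MEF peaks, with 18 to 26 peaks in the intermediates.

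Short runs of peaks of one state with none of the other were about as frequent in both lists, and long runs were more frequent and spanned more sequence in MEF. There were 17764 runs in iPSC and 17614 in MEF at equal list sizes, with a median of 2 peaks in each. Runs of at least 10 consecutive peaks numbered 505 in iPSC, holding 12.3% of the list over a median of 115 kb, and 575 in MEF, holding 16.3% over a median of 344 kb. Runs of at least 20 peaks numbered 40 in iPSC, on 12 chromosomes, and 112 in MEF, on 20 chromosomes.

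The longest iPSC run by number of peaks was at 107117558 to 107337697 on chromosome 12, where 49 iPSC peaks stood against 0 MEF peaks, and against 2 in the full MEF list. The intermediates, also at equal list size, had 4, 6 and 8 peaks there over D1, D3 and D5 with OSNK and 4, 6 and 11 with OySyNyK. The second, at 76496114 to 76890245 on chromosome 2, held 43 iPSC and 0 MEF peaks (1 in the full MEF list), with 4, 11 and 13 with OSNK and 3, 5 and 8 with OySyNyK. Another, at 56050806 to 56338666 on chromosome 14, held 37 iPSC and 0 MEF peaks (3 in the full MEF list), with 2, 12 and 14 peaks with OSNK and 8, 19 and 21 with OySyNyK over the same days. In each of these 3 runs the count was higher at each later day with either method and lower than in iPSC throughout.

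The longest MEF run by number of peaks, at 85148655 to 87388431 on chromosome 16, spanned 2240 kb and held 0 iPSC and 68 MEF peaks. The intermediates had 65, 40 and 33 peaks there over D1, D3 and D5 with OSNK and 34, 21 and 14 with OySyNyK. On chromosome 18, positions 79111559 to 80254682 held 0 iPSC and 44 MEF peaks, with 45, 23 and 13 with OSNK and 34, 25 and 21 with OySyNyK. On chromosome 1, positions 145788301 to 151979563, a stretch of 6191 kb, held 0 iPSC and 43 MEF peaks, with 38, 22 and 20 with OSNK and 24, 12 and 2 with OySyNyK. In each of these 3 runs the count was lower at each later day. The iPSC list at equal size is the full iPSC list, so its 0 peaks have no further check.

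Chromosomes differed in their balance of iPSC and MEF peaks, and 5 autosomes stood apart. At equal list sizes chromosome 13 had 860 iPSC and 2828 MEF peaks, a ratio of 0.304, and chromosome 16 had 640 and 2053, a ratio of 0.312. The ratio was 0.528 on chromosome 18, with 1110 iPSC and 2102 MEF peaks, and 0.602 on chromosome 6, with 1464 and 2433. On chromosome 12 it was 1.81, with 4435 iPSC and 2454 MEF peaks. On the other 14 autosomes it lay between 0.777 and 1.28. The X chromosome had 106 iPSC and 388 MEF peaks. Peak lists hold no measure of DNA copy number, and its part in these ratios was not tested.

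The share of MEF peaks overlapped by iPSC moved with this ratio, and the share of iPSC peaks overlapped by MEF varied less. The relation of the MEF share to the ratio is largely arithmetic and no separate finding. Shared peaks were nearly equal in number, 11937 in iPSC and 11447 in MEF. At a given iPSC share, fewer iPSC peaks per MEF peak therefore lower the MEF share. The iPSC share had a correlation with the ratio of -0.40 (Pearson) and -0.17 (Spearman) over the autosomes. Over the 19 autosomes, between 18.9% and 27.3% of iPSC peaks were shared, with a median of 21.6%. Of the MEF peaks, 5.64% were shared on chromosome 13 and 6.95% on 16. Chromosome 12 had the highest MEF share, 28.5%, and the 14 autosomes above had between 13.1% and 22.8%. The iPSC peaks left on chromosomes 13 and 16 were shared at 22.7% and 27.3%, and their median scores were 63.5 and 64.6, below the 68.6 to 73.6 of the 14 autosomes. The MEF median scores there, 99.7 and 101, were also below the 102 to 106 of the 14 autosomes.

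**Figure D4:**
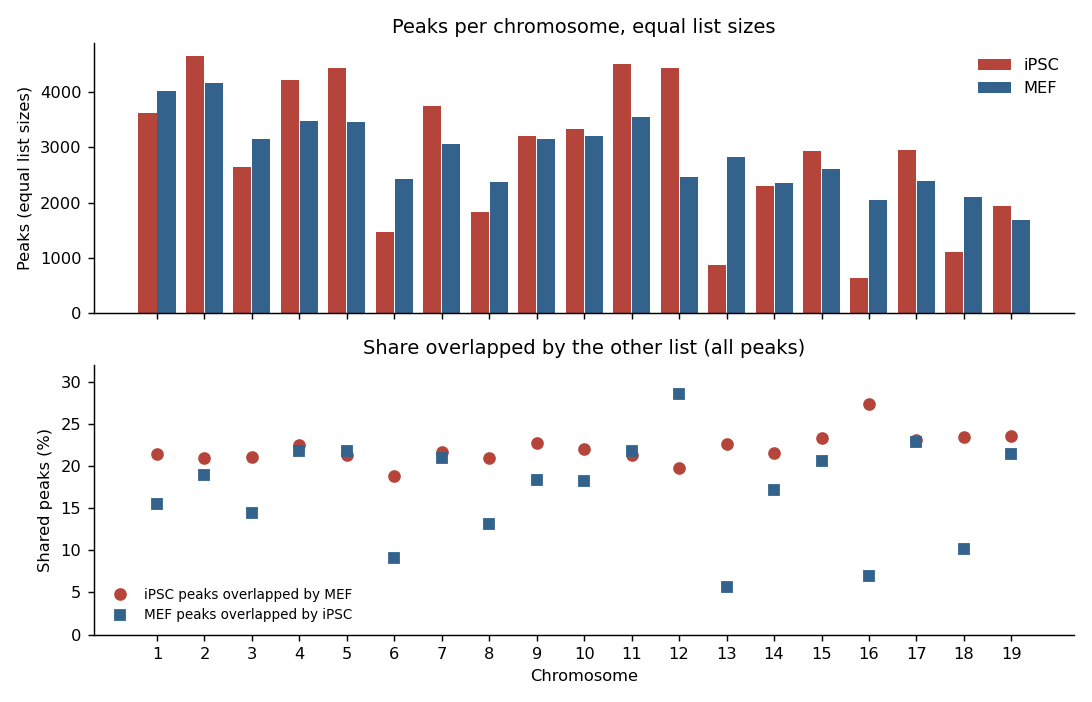
Top, number of peaks per autosome at equal list sizes, iPSC (red, left bar) and MEF (blue, right bar). Bottom, share (%) of iPSC peaks overlapped by MEF (red circles) and of MEF peaks overlapped by iPSC (blue squares), all peaks; the circles stay between 18.9% and 27.3% while the squares range between 5.64% on chromosome 13 and 28.5% on chromosome 12.

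The deficit was marked along the whole of chromosomes 13 and 16, and the differences on chromosomes 12 and 18 were uneven. On chromosome 18 iPSC peaks were fewer in every decile of its length at equal list sizes. The gap there was smallest in decile 4, with 171 iPSC and 172 MEF peaks. In terciles of the chromosome by length, in order of position, the iPSC to MEF ratio was 0.216, 0.364 and 0.302 on chromosome 13 and 0.342, 0.272 and 0.317 on chromosome 16. It was 0.912, 1.78 and 2.41 on chromosome 12, 0.692, 0.625 and 0.391 on chromosome 18, and 0.472, 0.599 and 0.688 on chromosome 6. At boundaries chosen after seeing the values, chromosome 12 had 1069 iPSC and 982 MEF peaks before 70 Mb and 3366 and 1472 from there on, ratios of 1.09 and 2.29. Chromosome 18 had 630 iPSC and 775 MEF peaks before 45 Mb and 480 and 1327 from there on, ratios of 0.813 and 0.362. From these boundaries on, the D5 lists lay nearer to MEF than iPSC did. From 70 Mb of chromosome 12 on they had 1603 peaks with OSNK and 1679 with OySyNyK, ratios to MEF of 1.09 and 1.14, and from 45 Mb of chromosome 18 on they had 1351 and 1341, ratios of 1.02 and 1.01. Before 70 Mb of chromosome 12 the D5 ratios to MEF were 0.807 and 0.681, farther from 1 than that of iPSC, and before 45 Mb of chromosome 18 they were 1.04 and 0.871.

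Along the chromosomes iPSC peaks were set more towards the far end, which in the mouse lies away from the centromere at the start of the coordinates. Of the peaks on chromosomes 1 to 19, the first decile of chromosome length held 3.91% of iPSC peaks (95% interval 3.75 to 4.08) and 5.21% of MEF peaks (5.04 to 5.39). The last decile held 18.7% of iPSC peaks (18.3 to 18.997) and 14.9% of MEF peaks (14.6 to 15.2). Both lists were therefore densest near the far end, iPSC more so. At equal list sizes the iPSC to MEF ratio was 0.755 in the first decile, 1.301 in the ninth and 1.26 in the last. Without chromosomes 6, 12, 13, 16 and 18 these ratios were 0.853, 1.37 and 1.36. The iPSC share in the last decile exceeded the MEF share on 15 of 19 chromosomes, and at equal list sizes the number of iPSC peaks there exceeded that of MEF on 12 of 19. In the first decile iPSC peaks were fewer than MEF peaks on 15 of 19 at equal sizes. In the first decile 19.4% of iPSC and 11.8% of MEF peaks were shared, and in the last decile 23.2% of either.

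**Figure D5:**
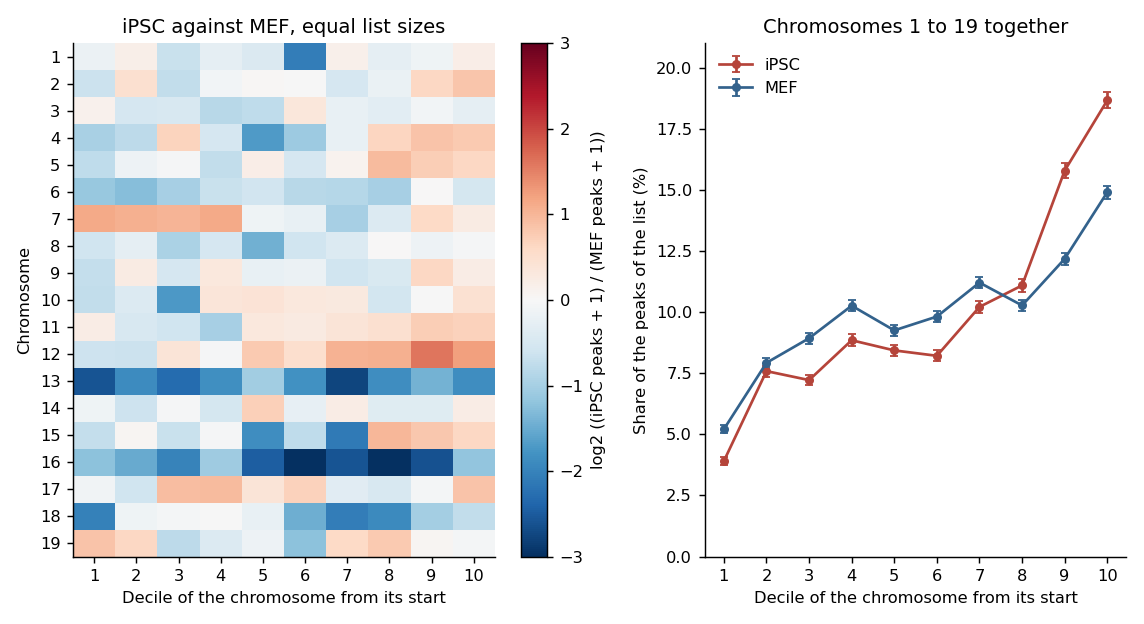
Left, log2 of iPSC over MEF peaks (1 added to each) in deciles of the length of each autosome at equal list sizes, red for more iPSC and blue for more MEF peaks. Right, share of each list's autosomal peaks (%) per decile with exact 95% intervals, iPSC in red and MEF in blue, all peaks. On the left, chromosomes 13 and 16 are blue throughout, and chromosome 18 is so only weakly in deciles 2 to 5. On the right, in the last decile iPSC reaches 18.7% and MEF 14.9%.

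In windows of 1 Mb, differences of at least 2-fold were common. Of 1663 windows with at least 10 peaks in either list at equal sizes, iPSC was at least 2-fold higher in 240 (14.4%) and at least 2-fold lower in 534 (32.1%). With a score of at least 100 these counts were 23 and 943 of 1304 windows, and with all peaks 142 and 697 of 1734. The balance between directions thus depends on where the lists end. Chromosomes 6, 13, 16 and 18, with 292 of the 1663 windows, held 194 of the 534 lower ones. Chromosome 12, with 80 windows, held 37 of the 240 higher ones. In 28 windows there were 0 iPSC peaks and at least 10 MEF peaks, and in 0 windows the reverse. Over the 2283 windows with a peak, the Spearman correlation of the counts was 0.78, as a description of neighbouring windows of the same 2 libraries.

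The largest excess of iPSC peaks was in the window from 107000001 to 108000000 on chromosome 12, with 152 iPSC and 10 MEF peaks at equal list sizes. The intermediates had 10, 10 and 16 peaks there over D1, D3 and D5 with OSNK and 11, 16 and 25 with OySyNyK. They were thus closer to MEF than to iPSC on each day. The window from 77000001 on the same chromosome had 175 iPSC and 44 MEF peaks, with 90 at OSNK D5 and 85 at OySyNyK D5. On chromosome 5, the window from 116000001 had 139 iPSC and 27 MEF peaks, with 27, 35 and 55 with OSNK and 43, 66 and 77 with OySyNyK over the days. The windows from 52000001 on chromosome 7, with 158 iPSC and 49 MEF peaks, and from 172000001 on chromosome 2, with 136 and 30, completed the 5. In the windows on chromosomes 5, 7 and 2 OySyNyK had more peaks than OSNK on each day.

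The largest deficit was in the window from 24000001 on chromosome 16, with 10 iPSC and 94 MEF peaks. The intermediates had 105, 86 and 76 peaks there with OSNK and 97, 71 and 67 with OySyNyK over D1, D3 and D5. The window from 119000001 on chromosome 7 had 33 iPSC and 112 MEF peaks, and that from 92000001 on chromosome 1 had 47 and 119. On chromosome 13 the windows from 52000001 and 45000001 had 16 and 14 iPSC peaks, against 87 and 75 MEF peaks. In the window from 45000001 the intermediates had 81 to 107 peaks, more than MEF in each list. Of these 5 windows, the lowest count in any intermediate was 64, in the first of the 2 on chromosome 13 at OSNK D5, and every intermediate count was above that of iPSC. All 10 windows kept their direction with all peaks, with a score of at least 100 and by covered bases. They were picked as the largest differences in these same lists, so this describes them and is no independent check. With a score of at least 100 the excess in the 5 higher windows was 9 to 47 peaks, the lowest on chromosome 2, and the 5 lower windows differed by -76 to -48 peaks.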

How the data were processed

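Chemical capture of 5hmC was followed by sequencing in 8 mouse samples, 1 library per group, grouped by cell type label and title. The authors deposited 1 peak list per library, with each peak's start, end and score, so peaks were called per sample. The score is the authors' value as deposited, and no step was applied to it here. Per the submitters' processing notes, the tools were Bowtie and MACS; which version and settings were used, and whether a control library was, is not given in the sources used here. The notes name the builds hg18 and NCBI36, which are human. On 10 of 20 chromosomes the mouse lists run beyond the last gene of GRCm38, so no gene, promoter or sequence of that assembly was used. Planned gene lists were left out for this reason.

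Overlaps, distances, clusters, windows and deciles of chromosome length were computed with numpy 2.4.6 and pandas 2.3.3 under Python 3.11.15. Chromosome length ran up to the last peak end of any list. Intervals were computed with scipy 1.17.1. Overlaps, distances, clusters and runs were tested on simulated lists, and the numbers of shared peaks were checked against bedtools 2.31.1. Deciles and windows had no such test. Figures were drawn with matplotlib 3.10.9. Regions were named by rule: the 5 windows of 1 Mb with the largest and smallest difference (at most 2 per chromosome), the 3 longest runs (at most 1 per chromosome), the 3 densest clusters, the 3 highest-scoring and 3 widest specific peaks of each list, and the 5 pairs with the highest lower rank. The comparison, regions and alternatives were chosen with earlier results of these data known. Alternatives were another overlap rule, score or list size, 500 bp peaks, other cluster gaps and windows, and fewer chromosomes.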

Additional observations from a re-analysis of the deposited data

How the results depend on the processing

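No paired analysis was possible because each group had 1 library. Over 119 alternatives of 29 results, 19 stayed within the counting interval or within 1.5 times the count. Another 99 moved by more, or by any amount where no interval was available, without a change of direction. Part of this tally was fixed in advance. Shares and counts cannot change direction, the iPSC list itself is the same at equal sizes, and the named windows were picked as the largest differences. Only 1 alternative changed direction. That 1 was the difference in shared peaks between the top and bottom terciles by score among the widest MEF peaks, -3.75 percentage points with all peaks and 1.61 at equal list sizes.

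The shared share was 21.7% in iPSC and 17.4% in MEF. It was 19.5% and 12.1% with at least 50% of the peak covered, 29.9% and 24.5% with gaps of up to 1 kb allowed, 18.6% and 6.93% with a score of at least 100, 18.7% and 17.8% at equal list sizes, 11.6% and 11.0% for the best 20000, 17.6% and 14.6% with peaks of 500 bp, and 14.8% and 14.7% with 500 bp at equal sizes. Without chromosomes 6, 12, 13, 16, 18 and X the MEF share was 19.04%. The difference between the top and bottom deciles by score was 15.5 and 1.31 percentage points in iPSC and MEF with at least 50% covered, 14.7 and 8.51 with a score of at least 100, 16.9 and 17.3 at equal sizes, and 13.2 and 8.33 with 500 bp. The median width of shared minus specific peaks, 92 bp in iPSC and 231 bp in MEF, was 82 and 123 bp with at least 50% covered, 136 and 420 bp with a score of at least 100, 94 and 255 bp at equal sizes, 61 and 174 bp for overlap of 500 bp peaks, and 91 and 232 bp without those chromosomes.

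Clusters of 5 or more held 4.62% of iPSC and 6.14% of MEF peaks with a score of at least 100, 3.30% and 2.997% with gaps of 2 kb and 56.9% and 52.6% with 20 kb, and in MEF 10.7% at equal sizes and 14.0% without those chromosomes. The last decile held 20.9% and 15.3% with a score of at least 100 and 20.4% and 16.4% of covered bases. Windows higher in iPSC numbered 142 of 1734 with all peaks and 23 of 1304 with a score of at least 100. They numbered 104 of 1663 by covered bases and 514 of 2509 at 500 kb. Lower windows numbered 943 of 1304 with a score of at least 100 and 327 of 1291 without chromosomes 6, 12, 13, 16 and 18. The cause of these shifts was not tested. Depth is unknown and 1 library stands for each state, so the values describe these libraries.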
